A study of Mus musculus with 10 samples.

Results

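The Ms4a genes encode membrane proteins that pass several times through the lipid bilayer and sit beside immune receptors, whose signalling they tune. The best known member is Ms4a1, which encodes the B cell antigen CD20, and most of the rest are made by monocytes, macrophages or T and NK cells. In the lung they are read mainly as markers of myeloid and lymphoid cells. The 8 members described here, Ms4a4a, Ms4a4b, Ms4a4c, Ms4a6b, Ms4a6c, Ms4a6d, Ms4a7 and Ms4a8a, were chosen by name from a table of 54532 genes. The choice was made with earlier results of these data known. Their counts beside the shares of all tested genes therefore describe these members and do not test the family. All 8 were present in the table and all 8 passed the filter on low counts, which kept 17139 genes.

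RNA was sequenced from whole lungs of wild-type (WT) mice in 10 libraries. Vehicle (3 libraries) received the vehicle only, LPS (3 libraries) received lipopolysaccharide, the bacterial outer-membrane component sensed by TLR4, and LPS+TSLP (4 libraries) received recombinant thymic stromal lymphopoietin, an epithelial cytokine, before LPS. Strain, age, dose, route and time are not given in the sources used here, and no label says that libraries of 1 group came from separate animals, so the p-values measure the spread between these samples. Levels are CPM, read counts scaled to library size with TMM factors, with mean ± SD over the libraries of a group.

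Total counts per library ran from 16175172 to 18374461, and every library had the alveolar type 2 marker Sftpc (at least 1282 CPM) and the club cell marker Scgb1a1 (at least 8565 CPM). Libraries stood apart in several ways. Xist, the RNA of the inactive X chromosome, stood at 206 CPM in LPS replicate 1 and at 0.452 CPM or less in the other libraries. Ddx3y, a Y-linked gene, had 0 CPM in that library, 6.03 to 11.4 CPM in all 3 Vehicle libraries and 59.8 to 94.8 CPM in the other 6, so the Vehicle group as a whole stood apart from the groups it is compared with. LPS+TSLP replicate 1 had 13.1% of its counts in mitochondrial genes, against 1.11% to 6.50% elsewhere. Gene sequence composition also moved with treatment. When tested genes were put into 5 equal bins by GC content, the median log2 fold change of LPS against Vehicle was 0.81 in the bin of lowest GC (up to 44.6%) and −0.25 in the bin of highest GC. In the bin of lowest GC lie 6 of the 8 members, all but Ms4a6d and Ms4a8a. Values with each library's GC trend removed are given beside the fitted changes of the members. These are whole-tissue libraries, in which more cells of a type and more RNA per cell cannot be told apart.

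The 8 members lie within 537.4 kb of chromosome 19 (GRCm38/mm10), and 7 of them within 283.8 kb. Ms4a8a (11067471 to 11081102, minus strand) is set apart from the rest. It is followed by Ms4a7 (11321039 to 11336146, minus strand), Ms4a4a (11375523 to 11392790, plus strand), Ms4a4c (11404770 to 11427246, plus strand) and Ms4a4b (11443553 to 11467055, plus strand). Ms4a6c (11469366 to 11482192, plus strand), Ms4a6b (11516512 to 11531256, plus strand) and Ms4a6d (11586604 to 11604849, minus strand) end the row. Neighbouring members resemble each other in sequence. Of the 50-base stretches of Ms4a4c transcripts, 7.73% also occur in Ms4a4b, and of those of Ms4a6c 5.85% occur in Ms4a6b. A larger part of Ms4a6c (49.6% of its stretches) occurs in BE692007, a transcript annotated on the opposite strand of the same place, so the level of Ms4a6c is uncertain. For the other members 8.19% or less was shared with any gene.

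Stretches of identical letters also occur before the start sites, which are shown for both neighbouring pairs because the members of each pair are followed side by side below. The letters come from RefSeq (GRCm38.p6), are read 5′ to 3′ on the plus strand and give the 150 bases before the RefSeq start. Capitals mark the longest run of identical letters shared within a pair, 20 bases for Ms4a4b and Ms4a4c and 48 bases for Ms4a6b and Ms4a6c. The windows are chr19:11443408-11443557 for Ms4a4b, chr19:11407511-11407660 for Ms4a4c, chr19:11518409-11518558 for Ms4a6b and chr19:11469218-11469367 for Ms4a6c. The RefSeq starts of Ms4a4c and Ms4a6b lie 2891 and 2047 bases from the gene starts given above, inside the annotated genes, and those of the other 5 members in the promoter table at most 35 bases away.
Ms4a4b: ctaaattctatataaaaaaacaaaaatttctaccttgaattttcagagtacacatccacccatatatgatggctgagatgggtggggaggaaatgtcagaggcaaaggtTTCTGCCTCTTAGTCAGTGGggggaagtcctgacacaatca
Ms4a4c: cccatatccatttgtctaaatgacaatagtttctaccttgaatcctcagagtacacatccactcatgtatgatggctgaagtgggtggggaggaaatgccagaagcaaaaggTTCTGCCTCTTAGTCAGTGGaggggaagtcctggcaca
Ms4a6b: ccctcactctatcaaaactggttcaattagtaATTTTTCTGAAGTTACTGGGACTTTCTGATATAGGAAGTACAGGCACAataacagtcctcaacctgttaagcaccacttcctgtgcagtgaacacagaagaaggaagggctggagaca
Ms4a6c: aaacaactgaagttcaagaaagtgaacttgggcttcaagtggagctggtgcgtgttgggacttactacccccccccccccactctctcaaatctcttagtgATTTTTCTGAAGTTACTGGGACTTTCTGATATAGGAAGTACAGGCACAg
Over 250 bases before the start, 192 positions of Ms4a4b and Ms4a4c were identical in a global alignment, against 137 to 155 for the other 20 pairs of members. Ms4a6b and Ms4a6c had 155 (47.4% of the aligned columns), within the 45.5% to 53.0% of the other 19 pairs. The run shared by Ms4a6b and Ms4a6c begins 118 bases before the start of the former and 49 bases before that of the latter. Among all 21 pairs of the 7 members in the promoter table, the third longest shared run was 9 bases. The ETS core GGAAGT, searched on both strands, was present in the 250 bases of 5 of the 7 members (Ms4a4b, Ms4a4c, Ms4a6b, Ms4a6c and Ms4a7) and in 20.0% of all 27025 promoters of that length. These 5 are not independent. The sites 85 bases before the start of Ms4a6b and 16 bases before that of Ms4a6c lie in their shared run. Those 19 bases before the start of Ms4a4b and 15 bases before that of Ms4a4c lie just after theirs. The interferon-stimulated response element (3.04% of promoters), the STAT letters TTCNNNGAA (7.18%) and the longer ETS letters GAGGAAGT (2.44%), which overlap the ETS core, were found in 0 of the 7. The NF-kB motif (4.60%) was found only for Ms4a4a and the AP-1 letters TGANTCA (6.87%) were found only for Ms4a8a, among these 7 windows.

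LPS against Vehicle compared the libraries given LPS alone with those given vehicle. The Vehicle libraries also stood apart in Ddx3y, and genes of low GC content differed as a class. An effect of LPS cannot be told apart from any other difference between these groups of libraries. All 8 members had higher fitted levels after LPS (50.4% of all tested genes had), and in all 8 the LPS libraries lay above every Vehicle library, where 24.7% of the 17139 tested genes did so. The test called 5 of the 8 higher and 0 lower, against 14.2% of all tested genes called higher and 10.7% called lower, by edgeR quasi-likelihood with a Benjamini-Hochberg adjusted p under 0.05. The 5 were Ms4a4a, Ms4a6d, Ms4a7, Ms4a8a and Ms4a6b, and all 8 had an unadjusted p under 0.05, as had 39.6% of tested genes. The median log2 fold change of the members was 1.42, with a range from 1.15 to 2.35, where the median of all tested genes was 0.01. With the GC trend removed 3 were called, Ms4a4a, Ms4a6d and Ms4a8a, and 10.8% of all tested genes were called higher. With no filter on low counts 2 were called, Ms4a7 and Ms4a8a (6.83% of all genes). With both LPS replicate 1 and LPS+TSLP replicate 1 left out the count was 6 (13.6% of all genes). It was 0 without Vehicle replicate 2 and 1 without Vehicle replicate 1, where 5.75% and 5.80% of all genes were called higher. It was 1 without LPS replicate 1 (8.83%) and 2 without LPS replicate 3 (12.7%), and between 4 and 7 without any other library (10.3% to 17.5%).

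**Figure D1:**
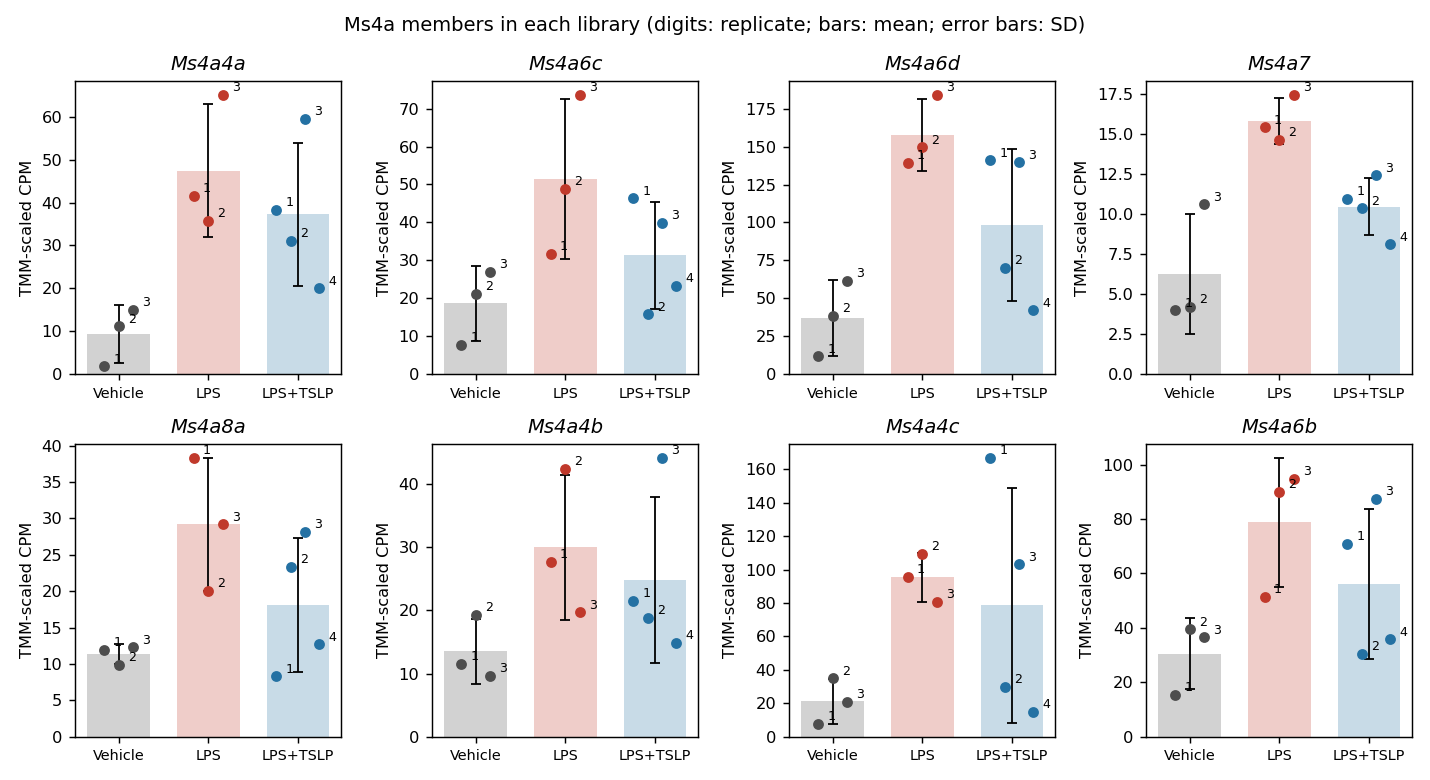
Level of each member in TMM-scaled CPM (vertical axes, linear from 0) in the 3 Vehicle, 3 LPS and 4 LPS+TSLP libraries; points are libraries with their replicate number, bars are means and error bars are SD. All LPS points lie above all Vehicle points in each of the 8 panels, and LPS+TSLP replicates 1 and 3 lie above replicates 2 and 4 in 7 of them.

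Among the macrophage and monocyte members, Ms4a4a moved most. Ms4a4a, a macrophage surface protein that associates with the fungal glucan receptor Dectin-1, had 1.80, 11.2 and 15.02 CPM in Vehicle replicates 1 to 3. It had 41.6, 35.7 and 65.1 CPM in LPS replicates 1 to 3, and 38.4, 31.1, 59.5 and 20.0 CPM in LPS+TSLP replicates 1 to 4. Every library given LPS, with or without TSLP, thus lay above every Vehicle library, and Vehicle replicate 1 was far below its group. The group means were 9.32 ± 6.80 CPM (n = 3), 47.5 ± 15.6 CPM (n = 3) and 37.3 ± 16.7 CPM (n = 4). LPS against Vehicle gave a log2 fold change of 2.35 (SE 0.61, edgeR adjusted p = 0.019), which was 1.99 (adjusted p = 0.036) with the GC trend removed. The call was lost without Vehicle replicate 2 (2.49, adjusted p = 0.058) and with no filter on low counts (adjusted p = 0.089).

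Ms4a6d, a macrophage protein linked to the complement receptor VSIG4 and to restraint of the NLRP3 inflammasome, had the highest mean level per length in every group. It had 11.6, 38.6 and 61.7 CPM in Vehicle, 139.3, 149.7 and 184.1 CPM in LPS, and 141.1, 70.0, 139.8 and 42.0 CPM in LPS+TSLP, in the order of the replicate numbers. The LPS libraries lay close together and well above Vehicle, whereas LPS+TSLP replicate 4 lay within the range of Vehicle. The log2 fold change of LPS against Vehicle was 2.08 (SE 0.56, edgeR adjusted p = 0.022), and 1.90 (adjusted p = 0.035) with the GC trend removed. The call was lost without Vehicle replicate 1 (1.66, adjusted p = 0.063), Vehicle replicate 2 (adjusted p = 0.076) or LPS replicate 1 (adjusted p = 0.053), and with no filter (adjusted p = 0.091).

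Ms4a7, a marker of tissue macrophages, was scarce. It had 3.99, 4.22 and 10.6 CPM in Vehicle, 15.4, 14.6 and 17.4 CPM in LPS, and 10.9, 10.4, 12.4 and 8.12 CPM in LPS+TSLP. The 3 groups formed steps in which LPS was highest without overlap, and LPS+TSLP overlapped Vehicle only through Vehicle replicate 3. LPS against Vehicle gave 1.34 (SE 0.36, edgeR adjusted p = 0.022), and 0.80 (adjusted p = 0.099) with the GC trend removed. The call was also lost when Vehicle replicate 1, Vehicle replicate 2, LPS replicate 1 or LPS replicate 3 was left out (adjusted p from 0.051 to 0.096).

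Ms4a8a, described in alternatively activated macrophages and in gut epithelium, had a tight Vehicle group of 11.96, 9.88 and 12.3 CPM. It had 38.3, 20.1 and 29.2 CPM in LPS and 8.32, 23.3, 28.2 and 12.7 CPM in LPS+TSLP. Here LPS+TSLP replicate 1 was the lowest of all 10 libraries, unlike in every other member. The log2 fold change after LPS was 1.36 (SE 0.41, edgeR adjusted p = 0.033), and 1.42 (adjusted p = 0.037) with the GC trend removed. Leaving out any Vehicle library, or LPS replicate 1 or 3, ended the call (adjusted p from 0.058 to 0.12). Of 11 tested ciliated airway markers 0 rose and 1 fell after LPS (Hydin, −2.16), against 14.2% of all tested genes called higher and 10.7% called lower. The summed level of these markers was highest in LPS+TSLP replicate 1 (1113 CPM, against 267.2 to 732.5 CPM elsewhere). Their part in the values of Ms4a8a was not tested.

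Ms4a6c, a monocyte gene, had 7.70, 21.2 and 27.0 CPM in Vehicle, 31.8, 48.8 and 73.6 CPM in LPS, and 46.3, 15.8, 39.9 and 23.3 CPM in LPS+TSLP. The LPS libraries were above Vehicle but spread over a 2.32-fold range. The log2 fold change of 1.46 (SE 0.50, edgeR adjusted p = 0.052) did not pass, and it was 0.90 (adjusted p = 0.20) with the GC trend removed. It passed without Vehicle replicate 3 (1.83, adjusted p = 0.045), without LPS+TSLP replicate 1 or 2 (adjusted p = 0.038 and 0.045), and with both LPS replicate 1 and LPS+TSLP replicate 1 left out (adjusted p = 0.038). BE692007, which shares sequence with it, had 1.52 to 2.95 CPM in Vehicle, 7.50 to 14.2 CPM in LPS and 5.68 to 16.7 CPM in LPS+TSLP.

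Ms4a4b is made by T and NK cells, where it associates with the co-receptor GITR and dampens T cell proliferation. It had 11.6, 19.3 and 9.67 CPM in Vehicle, 27.7, 42.4 and 19.7 CPM in LPS, and 21.6, 18.8, 44.2 and 14.9 CPM in LPS+TSLP. The lowest LPS library and the highest Vehicle library were nearly level, and LPS+TSLP replicate 3 was the highest of all. Its log2 fold change was 1.15 (SE 0.43, edgeR adjusted p = 0.071), the smallest of the 8. With the GC trend removed the direction turned, to −0.48 (SE 0.47, adjusted p = 0.49). At 38.2% GC it is the most AT-rich member. It passed without LPS+TSLP replicate 3 (adjusted p = 0.037).

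Ms4a4c, the neighbour of Ms4a4b, spread widest among the members within LPS+TSLP. It had 7.86, 35.0 and 20.8 CPM in Vehicle, 95.8, 109.6 and 80.7 CPM in LPS, and 166.9, 29.9, 103.2 and 14.8 CPM in LPS+TSLP. The highest LPS+TSLP library exceeded the lowest 11.3-fold, with replicate 1 above every LPS library and replicates 2 and 4 within the range of Vehicle. The log2 fold change after LPS was 2.17 (SE 0.77, edgeR adjusted p = 0.059), and 0.95 (adjusted p = 0.455) with the GC trend removed. It passed without LPS+TSLP replicate 1 (adjusted p = 0.047) or replicate 4 (adjusted p = 0.027).

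Ms4a6b, also reported beside GITR in T cells, had 15.5, 39.5 and 36.6 CPM in Vehicle, 51.4, 90.0 and 94.8 CPM in LPS, and 70.9, 30.4, 87.4 and 35.8 CPM in LPS+TSLP. LPS replicate 1 lay nearer to Vehicle than to the other LPS libraries. The log2 fold change of 1.37 (SE 0.45, edgeR adjusted p = 0.047) passed narrowly. It was 0.12 (adjusted p = 0.89) with the GC trend removed. Leaving out any 1 of the 6 Vehicle or LPS libraries ended the call (adjusted p from 0.059 to 0.16), as did no filter (adjusted p = 0.11), upper quartile factors (adjusted p = 0.053) and scaling by library size alone (adjusted p = 0.061).

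**Figure D2:**
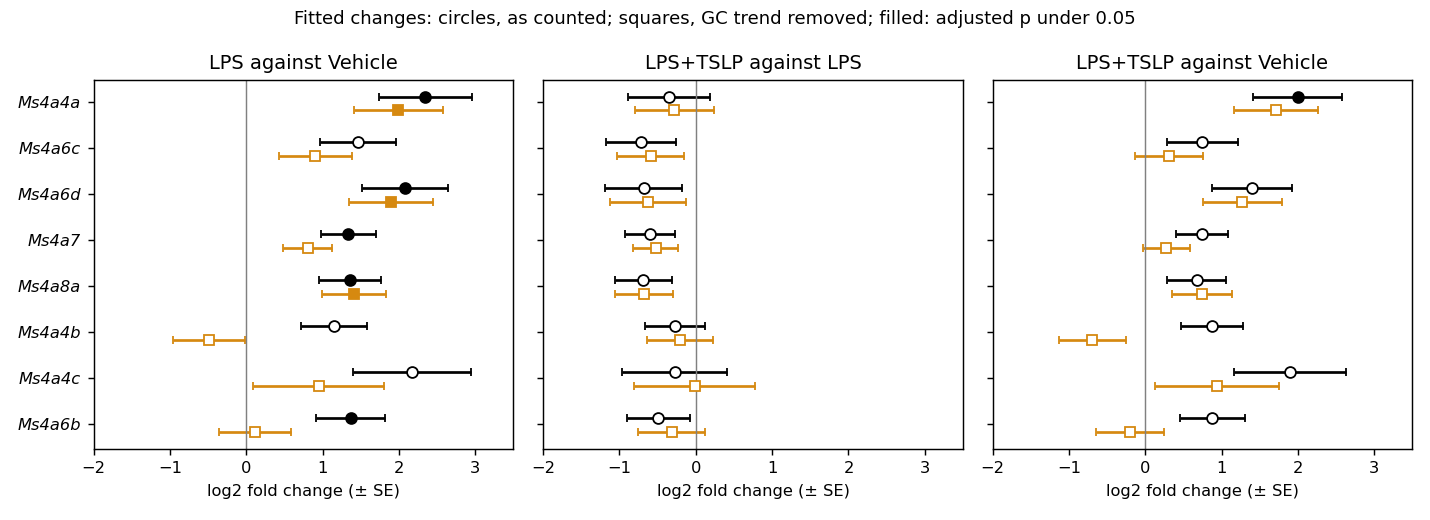
Fitted log2 fold change with its SE (horizontal axes) for the 8 members in the 3 comparisons, as counted (circles) and with each library's GC trend removed (squares); filled symbols have an adjusted p under 0.05. In LPS against Vehicle all 8 circles lie above 0, whereas Ms4a4b moves from 1.15 to −0.48 when the GC trend is removed and Ms4a6d only from 2.08 to 1.90.

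Per kilobase of annotated exon, Ms4a6d led in Vehicle (21.5 ± 14.4 CPM per kb), LPS (90.9 ± 13.5) and LPS+TSLP (56.6 ± 28.9). It made up 30.7%, 33.9% and 29.9% of the sum over the 8 members. Ms4a4c and Ms4a4a followed in Vehicle and LPS+TSLP, in the opposite order in LPS, and their ranges overlapped each other in every group. In LPS the lowest Ms4a6d library (80.3 CPM per kb) stood above the highest Ms4a4a library (77.9 CPM per kb), while in Vehicle and LPS+TSLP the ranges of the first and second members overlapped. Ms4a6c, Ms4a6b and Ms4a8a came next in that order in all 3 groups, and each overlapped its neighbour in that order. Ms4a4b and Ms4a7 were lowest, at 1.54 ± 0.58 and 1.41 ± 0.84 CPM per kb in Vehicle, and did not differ from each other beyond their spread. Ms4a4b has 8.78 kb of annotated exon over all its transcripts, against 0.836 kb for Ms4a4a, and which transcripts are expressed was not tested.

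**Figure D3:**
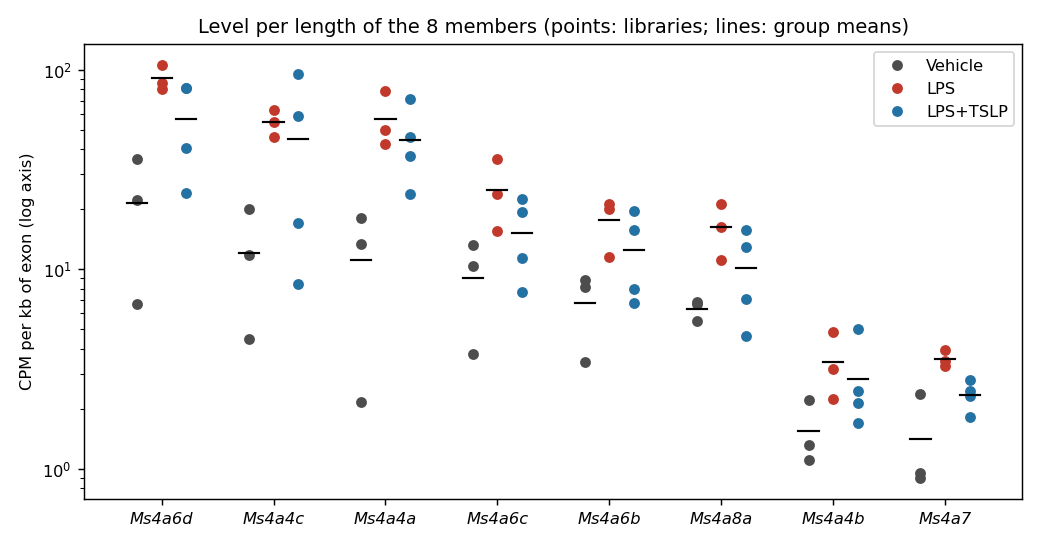
Level per length (CPM per kb of exon, log axis) of the 8 members, ordered by their Vehicle mean; points are libraries and short lines are group means. Ms4a6d has the highest mean in each group, and Ms4a4b and Ms4a7 the lowest.

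The effect of TSLP pretreatment on the LPS response was read from LPS+TSLP against LPS. The fitted levels of all 8 members were lower with TSLP (52.2% of tested genes were higher), and no member passed the test: edgeR called 0 of 8, with 0 of 8 at an unadjusted p under 0.05 and 0 of 8 by DESeq2 or limma-voom. Over all 17139 tested genes edgeR called 0 (0.00%), and 1388 (8.10%) had an unadjusted p under 0.05. The median log2 fold change of the members was −0.54, where the median of all tested genes was 0.02. Values ran from −0.27 for Ms4a4b (SE 0.39, edgeR adjusted p = 0.89) to −0.71 for Ms4a6c (SE 0.45, edgeR adjusted p = 0.73). With the GC trend removed the members had values from −0.67 (Ms4a8a) to −0.01 (Ms4a4c), with a median of −0.42, and 0 were called. For Ms4a4c the fitted value of −0.28 became 0.10 without LPS+TSLP replicate 4 and 0.08 with the replicate block, and for Ms4a4b it became 0.07 without LPS replicate 2. Ms4a7 was the single member whose groups did not overlap: all 4 LPS+TSLP libraries (8.12 to 12.4 CPM) lay below all 3 LPS libraries (14.6 to 17.4 CPM), where 3.54% of tested genes lay lower without overlap. Its log2 fold change was −0.60 (SE 0.33, 95% interval −1.24 to 0.05, edgeR adjusted p = 0.69).

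The LPS+TSLP libraries differed among themselves. In 7 of the 8 members, all but Ms4a8a, replicates 1 and 3 both lay above replicates 2 and 4. The share of all tested genes with this order was not counted, so the order cannot be called particular to the members. Summed over the 8 members the libraries had 504.4, 229.6, 514.5 and 171.6 CPM in replicates 1 to 4. The LPS libraries had 441.3, 510.9 and 564.6 CPM and the Vehicle libraries 72.0, 178.8 and 193.6 CPM. In this sum, which is weighted towards the most abundant members, replicates 1 and 3 were at the level of LPS and replicates 2 and 4 near that of Vehicle. Single members did not all do so. Ms4a4a lay above every Vehicle library in all 4 replicates, and Ms4a7 lay below every LPS library in all 4. Ms4a8a was lowest in replicate 1. A list of 14 interferon-stimulated genes had summed levels of 4999, 1350, 4224 and 1247 CPM in LPS+TSLP replicates 1 to 4. It had 5109, 4213 and 3719 CPM in LPS, and 450.5, 1605 and 1557 CPM in Vehicle, so the same replicates were high and low. The summed level of 15 monocyte markers did not follow this order: it was 4261, 8482, 9277 and 9299 CPM in LPS+TSLP replicates 1 to 4. Such a sum is weighted towards the most abundant markers of a list and need not track most of them. The mean of this sum was 9983 CPM in Vehicle and 8569 CPM in LPS, while the markers' median log2 fold change was 0.44. The summed level of 12 neutrophil markers was 562.1, 1021, 1147 and 814.8 CPM, below all 3 LPS libraries (1846, 1621 and 2295 CPM) and within the range of Vehicle (472.9, 967.9 and 1336 CPM). The median log2 fold change of the neutrophil markers in LPS+TSLP against LPS was −1.34, with Ly6g at −1.66 and S100a9 at −1.60 (edgeR adjusted p = 0.59 for both), against −0.54 for the members. The part of interferon-stimulated genes, of monocytes or of neutrophils in the members' levels was not tested.

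**Figure D4:**
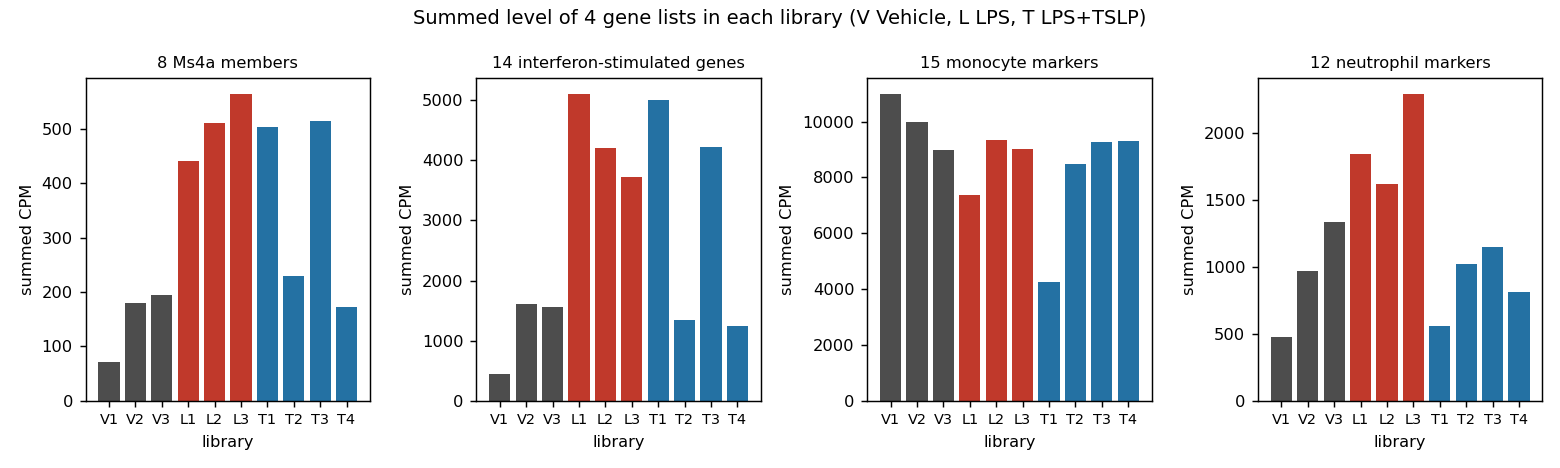
Summed CPM (vertical axes, from 0) of the 8 Ms4a members, 14 interferon-stimulated genes, 15 monocyte markers and 12 neutrophil markers in each library (V Vehicle, L LPS, T LPS+TSLP, with the replicate number). In both the members and the interferon-stimulated genes, LPS+TSLP replicates 1 and 3 stand above replicates 2 and 4. The sum of the monocyte markers, which is weighted towards the most abundant of them, is lowest in LPS+TSLP replicate 1 (4261 CPM).

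LPS+TSLP against Vehicle compared the libraries given both TSLP and LPS with those given vehicle, with the same limit as LPS against Vehicle. It shares the LPS+TSLP libraries with the comparison above and the Vehicle libraries with the first. Fitted levels of all 8 members were above Vehicle (51.6% of tested genes were), and the test called 1, Ms4a4a, against 8.82% of all tested genes called higher. Ms4a4a rose by 1.997 on the log2 scale (SE 0.58, edgeR adjusted p = 0.043), and was also the single member without overlap between the groups (15.7% of tested genes lay higher without overlap). With the GC trend removed it was 1.71 (adjusted p = 0.075), and without LPS+TSLP replicate 1 it was 1.99 (adjusted p = 0.066). The call was also lost when Vehicle replicate 1 or 2, either of LPS replicates 1 and 2, or either of LPS+TSLP replicates 2 and 3 was left out (adjusted p from 0.051 to 0.12), and with both LPS replicate 1 and LPS+TSLP replicate 1 left out (adjusted p = 0.065). Ms4a4c had 1.89 (SE 0.73, edgeR adjusted p = 0.10) and Ms4a6d had 1.40 (SE 0.53, edgeR adjusted p = 0.094), and the others had 0.67 to 0.88 (edgeR adjusted p from 0.16 to 0.29). Without LPS+TSLP replicate 4, Ms4a4c (2.29, adjusted p = 0.029) and Ms4a6d (1.69, adjusted p = 0.039) passed. Without Vehicle replicate 3, Ms4a6d (1.99, adjusted p = 0.050) and Ms4a7 (1.35, adjusted p = 0.014) passed. Ms4a4b and Ms4a6b turned to −0.69 and −0.20 with the GC trend removed.

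The members did not all follow one another across libraries. Pearson's r of log2 CPM over the 10 libraries, which hold the group differences as well as those between replicates, ran from 0.34 to 0.96 over the 28 pairs, with a median of 0.78. These values are descriptions over libraries that share depth and composition. The neighbours Ms4a6b and Ms4a6c had the highest (0.96, and 0.94 with group means removed), followed by Ms4a4a and Ms4a6d (0.96 and 0.93). In each library Ms4a6c had between 0.456 and 0.776 times the CPM of Ms4a6b. The other neighbouring pair, Ms4a4b and Ms4a4c, had r of 0.78, and 0.60 with group means removed. Their ratio was far less steady: Ms4a4c had 0.68 times the CPM of Ms4a4b in Vehicle replicate 1 and 7.74 times in LPS+TSLP replicate 1. Ms4a8a stood apart, with r from −0.30 to 0.24 to the other members once group means were removed.

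**Figure D5:**
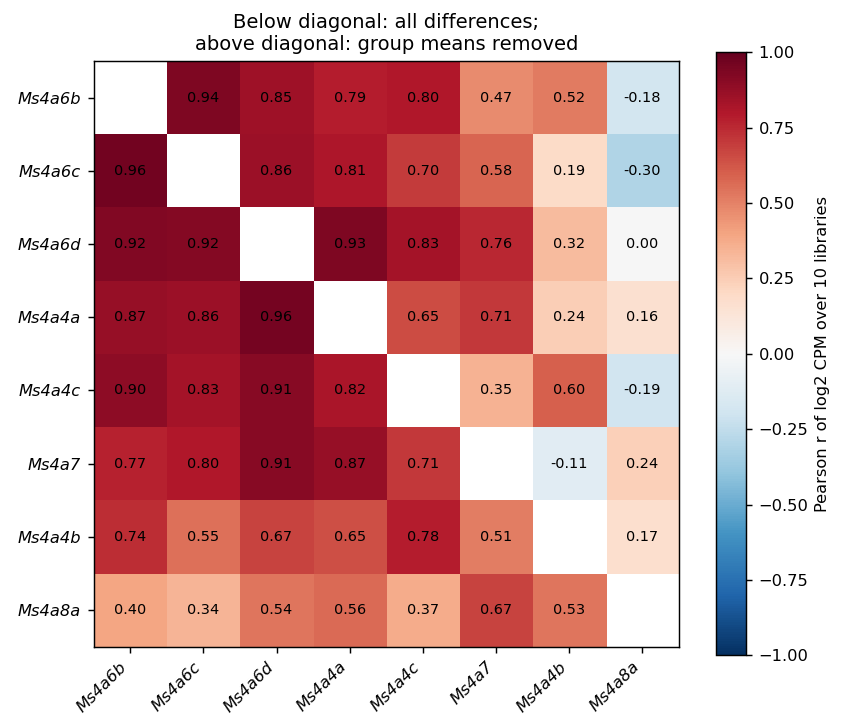
Pearson's r of log2 CPM over 10 libraries for each pair of members, with all differences included (below the diagonal) and with group means removed (above it); the colour scale runs from −1 to 1. Ms4a6b and Ms4a6c reach 0.96 and 0.94, whereas Ms4a8a has values of at most 0.24 above the diagonal.

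Protein-coding genes outside the family whose log2 CPM was among the most like that of each member over the 10 libraries were as follows, with r as a description. Ms4a4a was most like Acod1 (0.99), which makes itaconate, Apobec3 (0.97), a cytidine deaminase, and Slfn8 (0.97), a Schlafen gene. Ms4a6d was most like Cxcl9 (0.98), Ifi211 (0.98) and Cxcl10 (0.98), of which Cxcl9 and Cxcl10 are CXCR3 ligands. Ms4a4c was most like Phf11b (0.99), Gm9733 (0.98) and Isg15 (0.98), a ubiquitin-like modifier. Ms4a6b was nearest to Irf2 (0.97), Parp14 (0.96) and Ifi206 (0.96), and Ms4a6c was near to Parp14 (0.98) and the hexokinase Hk3 (0.96). Ms4a4b was nearest to Ptrhd1 (0.96) and to Cd160 (0.92) and Klrc2 (0.92), receptors of NK and T cells. Ms4a7 was nearest to the kinase Mapk11 (0.98), Spic (0.97), a transcription factor of splenic macrophages, and Pla2g7 (0.96), a phospholipase. Ms4a8a was nearest to Mvd (0.97), an enzyme of cholesterol synthesis, Cdc42ep2 (0.97) and the transporter Slc6a13 (0.96). No test was made of these values.

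Of 15 other Ms4a genes and Tmem176 relatives looked for, 13 were in the table and 5 passed the filter. Ms4a4d rose after LPS, from 37.3 ± 3.32 to 65.0 ± 26.0 CPM (log2 0.80, SE 0.26, edgeR adjusted p = 0.043), and had 47.8 ± 4.55 CPM in LPS+TSLP. Its LPS libraries had 92.4, 62.0 and 40.7 CPM, the highest being LPS replicate 1, and without that library the value was 0.46 (adjusted p = 0.18). The call was also lost without any 1 Vehicle library (edgeR adjusted p from 0.089 to 0.15), without LPS replicate 2 (0.078) and without LPS+TSLP replicate 2 or 3 (0.057 for both). Upper quartile factors, scaling by library size alone, the replicate block, limma-voom and the compared groups alone ended it too. Removal of the GC trend left 0.17 (adjusted p = 0.73). Tmem176b, an intracellular cation channel of dendritic cells, rose from 525.9 ± 135.8 to 914.0 ± 284.5 CPM (log2 0.80, SE 0.27, edgeR adjusted p = 0.050, just under the threshold), and by 1.01 (adjusted p = 0.029) with the GC trend removed. Without LPS replicate 1 it had 0.51 (adjusted p = 0.17). Tmem176b also lost its call without any 1 Vehicle library (edgeR adjusted p from 0.0501 to 0.19), LPS replicate 2 (0.061) or any of LPS+TSLP replicates 2 to 4 (0.053 to 0.069). So it did with no filter, upper quartile factors, scaling by library size alone, the replicate block and the compared groups alone. Its partner Tmem176a had 0.77 (edgeR adjusted p = 0.094), Ms4a14 had 2.65 (edgeR adjusted p = 0.071) at no more than 3.11 CPM in any library, and Ms4a1 had −0.55 (edgeR adjusted p = 0.21). Ms4a1 had 13.9 ± 4.59 CPM in Vehicle, 9.48 ± 1.74 CPM in LPS and 11.8 ± 2.82 CPM in LPS+TSLP, with overlapping groups. It was called lower with the GC trend removed, at −1.59 (adjusted p = 0.013) in LPS and −1.22 (adjusted p = 0.039) in LPS+TSLP, both against Vehicle. None of these 5 passed in LPS+TSLP against LPS (edgeR adjusted p from 0.68 to 0.99, 0 of 5 at an unadjusted p under 0.05, and 0 by DESeq2 or limma-voom). Ms4a2, the beta chain of the IgE receptor, had 31 counts in all 10 libraries together and Ms4a3, a gene of myeloid progenitors, had 43. Ms4a5, Ms4a12, Ms4a13 and Ms4a18 had 0 counts.

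Of 6 genes for known partners of MS4A proteins 4 passed the filter, and 2 of these 4 rose after LPS, where 14.2% of all tested genes were called higher. Fcer1g, the signalling chain shared by Fc receptors, rose from 79.4 ± 21.3 to 373.8 ± 83.9 CPM (log2 2.23, SE 0.36, edgeR adjusted p = 0.0032). Fcer1g was also higher in LPS+TSLP than in Vehicle (log2 1.76, SE 0.34, edgeR adjusted p = 0.0094), where 8.82% of all tested genes were called higher. Nlrp3 did not pass in that comparison (1.56, edgeR adjusted p = 0.091). Without Vehicle replicate 1 or 2 the call of Fcer1g against Vehicle in LPS+TSLP was lost (adjusted p = 0.062 and 0.054). Nlrp3, the inflammasome sensor, rose from 21.2 ± 16.4 to 116.3 ± 43.3 CPM (log2 2.46, SE 0.62, edgeR adjusted p = 0.017), a call lost without Vehicle replicate 1 or 2 (adjusted p = 0.067 and 0.072) and with no filter (adjusted p = 0.085). Fcer1g had 2.45 and Nlrp3 2.63 with the GC trend removed, and both passed. Clec7a, which encodes Dectin-1, the partner of MS4A4A, had 71.1 ± 9.15 and 83.7 ± 24.2 CPM (log2 0.23, SE 0.36, edgeR adjusted p = 0.66), and −0.82 (adjusted p = 0.20) with the GC trend removed. Tnfrsf18, which encodes GITR, had 3.23 ± 0.69 and 5.13 ± 2.50 CPM (log2 0.66, SE 0.42, edgeR adjusted p = 0.27). Vsig4 and Fcer1a were near 0, with 30 and 26 counts in all libraries together.

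Markers of the cells that could carry these genes were counted beside them. The counts are to be read against the 14.2% of all tested genes called higher and the 10.7% called lower. Those of the interstitial macrophage, T cell and ciliated airway lists were at or below these shares in both directions. In the neutrophil, alveolar macrophage, B cell and mast cell lists, no count lay above its share by as much as 1 gene. After LPS 4 of 15 monocyte markers rose (median log2 fold change 0.44), among them Itgam (2.77), Ccr2 (1.58) and Cd14 (2.22), and 0 fell. Their summed level ran from 8980 to 10998 CPM in Vehicle and from 7366 to 9333 CPM in LPS. Of 15 interstitial macrophage markers 2 rose and 1 fell (median 0.41): Maf (0.92) and Pf4 (1.27) rose, and Folr2 fell by 2.06 on the log2 scale. Their summed level was 1427 to 1847 CPM in Vehicle and 1732 to 2101 CPM in LPS. Alveolar macrophage markers had 1 of 15 higher and 2 lower (median −0.14), the scavenger receptor Marco (1.72) being higher and Siglecf and Cidec lower (−2.53 and −2.24), with summed levels of 1196 to 1435 CPM and 1133 to 1449 CPM. Of 12 neutrophil markers 2 rose (median 1.15), Ly6g and Stfa2l1 (1.67 and 2.42).

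On the lymphoid side, 0 of 19 T cell markers passed in either direction after LPS (median −0.18), and their summed level was 226.7 to 345.7 CPM in Vehicle and 213.8 to 317.4 CPM in LPS. Of 13 NK and cytotoxic genes 3 rose, Ccl5 (2.02), Klra8 (2.03) and Klre1 (1.79), with a median of 0.65 and summed levels of 162.7 to 328.1 CPM in Vehicle and 308.8 to 439.3 CPM in LPS. B cell markers had 2 of 12 lower (median −0.59), Cd22 and Fcrla (−1.30 and −1.23), and 0 higher. Of 6 tested mast cell and basophil markers 1 fell, Kit (−1.39), and 0 rose (median −1.12). In the interferon-stimulated list 6 of 14 rose (median 1.86), with Ifit1 at 4.65, Ifi44 at 2.79, Ifit2 at 2.84 and Irf7 at 2.13. After removal of the GC trend 10.8% of all tested genes were called higher and 9.11% lower. The counts higher were then 3 of 15 for monocytes, 3 of 15 for interstitial and 1 of 15 for alveolar macrophages. They were 1 of 13 for NK and cytotoxic genes, 1 of 12 for neutrophils, 7 of 14 for interferon-stimulated genes and 0 for the other lists. The counts lower were 2 of 15 for interstitial and 3 of 15 for alveolar macrophages, and 1 of 19 for T cells. They were 2 of 12 for B cells, 2 of 6 for mast cells and basophils, 1 of 11 for ciliated cells and 0 for the other lists. No marker list had a member at 0 counts in all libraries. In LPS+TSLP against LPS no gene of these lists passed (edgeR), as no gene of the whole table did. Whether cell numbers had a part in the members' changes was not tested.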

How the data were processed

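The authors deposited 1 table of raw read counts per gene for all 10 libraries, and the submitters' processing notes name HTSeq 0.6.0, HISAT2 and CASAVA, with the build GRCm38/mm10. How strand and reads with several matches were treated, and which annotation was counted, is not given in the sources used here. All counts were whole, with totals per library from 16175172 to 18374461, and within each group all libraries differed beyond counting noise. Of the 54532 identifiers, 99.77% were in GENCODE M21, which gave positions, exon lengths and GC content.

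After filterByExpr (17139 genes kept) and TMM scaling, the robust quasi-likelihood test of edgeR 4.0.16 (R 4.3.3) was run. A single model held all 10 libraries and 3 groups, which left 7 residual degrees of freedom. P-values were two-sided and adjusted by Benjamini-Hochberg over all tested genes, with a threshold of 0.05. Log2 CPM used a prior count of 2. SEs are the log2 fold change divided by the square root of F, and intervals are 1.96 SE wide on each side. Residuals of same-numbered libraries had correlations between −0.34 and 0.41, of which 3 of 9 exceeded 0.1. The highest were 0.41 for LPS and LPS+TSLP replicates 2 and 0.33 for LPS and LPS+TSLP replicates 1. These mixed values cannot decide whether same-numbered libraries belong together. No label says that they do, and the main fit used no block. Shared sequence is the share of a gene's 50-base transcript stretches found in another annotated gene on either strand. As an alternative, the log2 CPM of each gene was taken relative to its mean over the 10 libraries. A loess curve (span 0.3) of these differences on GC content was fitted in each library and subtracted through offsets. This removes any difference between libraries that follows GC content, whatever its source. Other alternatives used DESeq2 1.42.0, limma-voom (limma 3.58.1), other scalings and filters, the replicate block, the compared groups alone, and the data without 1 or 2 libraries. All members were named by rule, as were other tested Ms4a genes, all partners and up to 4 genes of each list. For the genes most alike, the rule took the 3 highest r per member, of which 1 is not reported here. The members and lists were chosen with earlier results of these data known. Promoter windows were matched by symbol for 7 of the 8 members.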

Additional observations from a re-analysis of the deposited data

How the results depend on the processing

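The number of members called in LPS against Vehicle, 5, was 2 with no filter on low counts, 3 with the GC trend removed, 8 by the DESeq2 Wald test and 8 with the compared groups alone, where 6.83%, 10.8%, 17.6% and 16.5% of all genes were called higher. Without 1 library it ran from 0 to 7, and the share of all genes from 5.75% to 17.5%. In LPS+TSLP against LPS it was 0 in all 21 alternatives. In LPS+TSLP against Vehicle, 1 member was called, where 8.82% of all genes were called higher. The count was 0 with no filter (4.45% of all genes), with the GC trend removed (4.47%) and with the compared groups alone (8.04%). It was 0 as well with both LPS replicate 1 and LPS+TSLP replicate 1 left out (13.3%). It was 2 with the replicate block (10.9%) and 2 by the DESeq2 Wald test (13.4%). Without 1 library it ran from 0 to 3, and the share of all genes from 2.30% to 11.8%. The replicate block, built on replicate numbers that no label calls a pairing, changed no other count of member calls.

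Of 504 single values (8 members, 3 comparisons, 21 alternatives), 441 kept direction and side of the threshold, 37 lost a call, 20 gained one and 6 changed sign. With the GC trend removed Ms4a4b was −0.48 in LPS against Vehicle and −0.69 in LPS+TSLP against Vehicle, where Ms4a6b was −0.20. In LPS+TSLP against LPS, Ms4a4b ran from −0.70 (without LPS+TSLP replicate 3) to 0.066 (without LPS replicate 2). Ms4a4c ran from −0.95 (without LPS+TSLP replicate 1) to 0.097 (without LPS+TSLP replicate 4), and was 0.076 with the replicate block. The DESeq2 Wald test called 22 genes higher and 13 lower in that comparison, where edgeR called 0. The causes were not tested, other than that fewer samples enter a fit without a library and more genes a fit with no filter.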
